A study of Mus musculus with 82 samples.

Results

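The genes described here encode Wdr5 and 9 partners that put methyl groups on lysine 4 of histone H3 (H3K4), found by symbol among 21523 protein-coding genes of GRCm38 (mm10) on chromosomes 1 to 19 and X. All 10 were present: the core subunit genes Wdr5, Rbbp5, Ash2l and Dpy30, and the catalytic subunit genes Kmt2a, Kmt2b, Kmt2c, Kmt2d, Setd1a and Setd1b. For each gene, the peaks inside it and within 1, 5 and 20 kb of its ends were taken from 2 deposited peak lists of mouse embryonic stem cells on a hybrid 129-C57BL/6 background, grown in 2i medium with LIF. One list holds 15026 peaks of Adnp, from 3 ChIP-seq replicates in cells whose Adnp carries a FlagAvi tag, with no treatment. The other holds 2047 peaks of the heterochromatin protein HP1γ that lack the Adnp motif. It is tied to 3 replicates in cells whose Cbx3, the gene of HP1γ, carries the FlagAvi tag, and to 3 replicates in cells with the same tag and an Adnp knockout, all with no treatment. Replicates are pooled in both lists, so no spread between replicates can be given, and the depth is unknown because no read counts come with them. Peak names in the HP1γ list refer to the Adnp knockout, so it is not known here in which genotype such a peak was seen. The lists hold no expression values against which markers of embryonic stem cells could be checked.

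Methylation of H3K4 marks promoters and enhancers of active genes and is written by related complexes of the COMPASS or MLL family. Each complex joins 1 catalytic subunit with a SET domain to a shared core. Wdr5 is a ring-shaped scaffold protein of that core, Rbbp5 and Ash2l form the surface that activates the SET domain, and Dpy30 binds Ash2l. Setd1a and Setd1b write most promoter trimethylation, Kmt2a and Kmt2b act at selected promoters such as those of developmental genes, and Kmt2c and Kmt2d prime enhancers. Adnp is a zinc finger and homeodomain protein that joins the remodeler Chd4 and HP1 proteins in the ChAHP complex, which represses lineage genes in embryonic stem cells.

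Wdr5 lay on chromosome 2 at 27515147 to 27536535, on the plus strand. Adnp and HP1γ peaks flanked it on both sides, and none lay inside the gene. The gene was chosen by the overlap of an Adnp with an HP1γ peak there, and the other 9 genes as its partners, so the values at that site are a description. Upstream, an Adnp peak at 27512272 to 27512678 with a score of 36.0 lay 2.47 kb from the transcription start. The score is the authors' value per peak, of a kind that is not stated, and was used only to rank peaks within the Adnp list, where 77.6% of peaks had a lower one. An HP1γ peak at 27512154 to 27512603 lay 2.54 kb from the same start. Both peaks covered 27512272 to 27512603, a stretch of 332 bp that made up 81.6% of the Adnp peak and 73.8% of the HP1γ peak. Their centres were 96.5 bp apart. Among all 306 overlapping pairs on these chromosomes the median overlap was 260 bp and the median distance between centres 107 bp. The Adnp peak of the pair scored above 70.3% of the 293 Adnp peaks that take part in such pairs. It stood by itself, with the next Adnp peaks 22.0 kb below and 24.1 kb above it.

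The neighbouring gene below the site is Brd3, which encodes a bromodomain protein that reads acetylated histones. Its higher end lay 4.62 kb below the Adnp peak, and the Wdr5 start was the nearer gene end. Brd3 itself held Adnp peaks at 27483941 to 27484203, 27486387 to 27486930 and 27489508 to 27490250, with scores of 13.0, 42.9 and 28.2. It also held an HP1γ peak at 27495678 to 27496013, which lay 19.1 kb from Wdr5. Of these Brd3 peaks, the one with a score of 42.9 exceeded the score at the shared site.

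Past the 3′ end of Wdr5 lay a further 3 Adnp peaks, all with scores under the list's median of 21.2. The first, at 27536760 to 27537215, began 225 bp beyond the gene and had a score of 15.0. The second, at 27538869 to 27539170, had a score of 16.4. It lay 2.33 kb beyond Wdr5 and nearer, at 635 bp, to the snRNA gene Gm25541. The third, at 27550320 to 27550638, had a score of 16.5. It lay 13.8 kb beyond Wdr5 and nearer, at 4.23 kb, to an end of Gm13421. An HP1γ peak at 27540353 to 27540650 lay 3.82 kb beyond Wdr5 and 1183 bp from the nearest Adnp peak. That peak covered the start of the lncRNA gene Gm13421 (27540426 to 27546090). Of the 4 Adnp peaks within 20 kb of Wdr5, the upstream one on the HP1γ peak therefore had the highest score, and the downstream Adnp and HP1γ peaks did not overlap. The 3 HP1γ peaks carry the consecutive numbers 1327, 1328 and 1329 in their names, and numbers follow the position along each chromosome throughout the list. No number is thus missing between them.

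**Figure D1:**
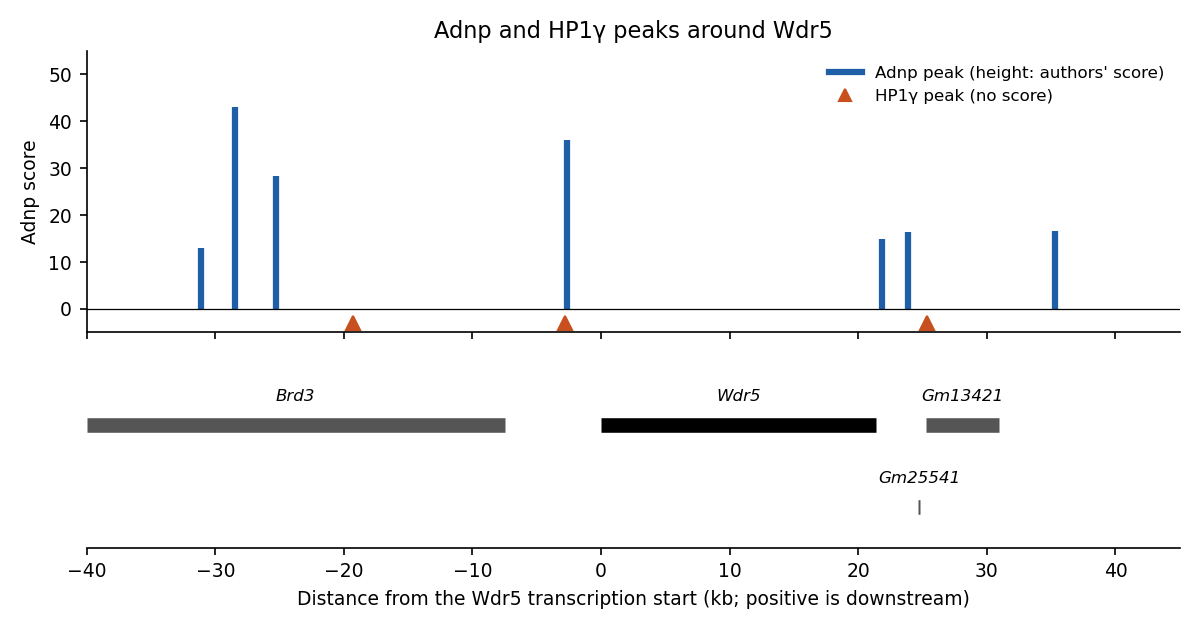
Adnp peaks (blue bars, height is the authors' score) and HP1γ peaks (orange triangles, no score) by distance in kb from the Wdr5 transcription start, with genes as bars underneath; Brd3 continues beyond the left edge. The bar of 36.0 and a triangle coincide just upstream of Wdr5, while the downstream Adnp bars reach 16.5 at most and no peak lies over the gene.

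The promoter sequences at this locus show where the HP1γ peak meets an annotated start and where no peak does. They are from RefSeq on GRCm38.p6, 5′ to 3′, and give the 250 bases before the start. Capitals mark bases inside a deposited peak. For Gm13421 (plus strand, chr2:27540176-27540425) these are the 73 bases next to the start, which the HP1γ peak covers. For Wdr5 (plus strand, chr2:27514897-27515146) there are none.
Gm13421: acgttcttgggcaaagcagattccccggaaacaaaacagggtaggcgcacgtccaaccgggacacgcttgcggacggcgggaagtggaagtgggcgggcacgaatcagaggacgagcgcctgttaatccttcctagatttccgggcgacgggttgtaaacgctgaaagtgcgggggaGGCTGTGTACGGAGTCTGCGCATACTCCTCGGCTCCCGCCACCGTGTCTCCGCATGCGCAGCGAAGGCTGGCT
Wdr5: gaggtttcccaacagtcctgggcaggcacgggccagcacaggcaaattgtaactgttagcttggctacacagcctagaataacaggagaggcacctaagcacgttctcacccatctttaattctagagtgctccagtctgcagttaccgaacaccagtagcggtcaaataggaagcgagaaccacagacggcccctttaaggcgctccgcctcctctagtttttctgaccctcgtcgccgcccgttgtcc

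The Wdr5 promoter was thus free of listed peaks of both proteins, and its nearest peaks lay further upstream. Within the 300 bases from 250 before to 50 after the start, GC content was 59% at Wdr5 and 60.3% at Gm13421, against a median of 52.7% over 32851 promoter windows. CpG dinucleotides numbered 22 and 29, against a median of 7.

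Of the other core subunits, Rbbp5 and Dpy30 had Adnp peaks within 5 kb and Ash2l did not. Rbbp5, on chromosome 1 at 132477348 to 132505665, had 2 upstream Adnp peaks inside a neighbouring lncRNA gene. The nearer, at 132472574 to 132473662, ended 3.69 kb from Rbbp5 and was 1089 bp wide, wider than 99.3% of the list, while its score of 11.3 exceeded only 14.2% of it. The farther, at 132469598 to 132470168, lay 7.18 kb away with a score of 43.0, and its nearest protein-coding gene end was that of Dstyk, a kinase gene. The wide peak was thus the lower-scoring of the pair.

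Dpy30, on chromosome 17 at 74299474 to 74323944 on the minus strand, was the core subunit gene with an Adnp peak inside. That peak, at 74309276 to 74309678, had a score of 25.0 and its centre lay 6.73 kb downstream of the nearest of the gene's listed starts. A lower-scoring peak at 74328284 to 74328567, with a score of 14.7, lay 4.34 kb beyond the higher end. An end of a gene that is not protein-coding was nearer to it, at 540 bp. The other listed starts of Dpy30, at 74316211 to 74316433, lay farther from this peak. The nearest HP1γ peak was 2617 kb from Dpy30.

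At Ash2l, on chromosome 8 at 25816000 to 25847694, the nearest Adnp peak was 17.8 kb away at 25797651 to 25798181. Its score of 101 was the highest within 20 kb of any of the 10 genes and exceeded 97.6% of the list, but it lay inside Lsm1, a gene of mRNA decapping. The closest HP1γ peak was 51.2 kb from Ash2l, inside the potassium channel gene Kcnu1.

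Among the catalytic subunits, Kmt2a had an Adnp peak on its promoter. Kmt2a, whose product is the MLL protein that keeps Hox genes active, lies on the minus strand of chromosome 9 at 44803355 to 44881352. The Adnp peak at 44881312 to 44881681 straddled its 5′ end and began 23 bp upstream of the listed start at 44881289. Its score of 49.6 exceeded 87.8% of the list and was the highest of the 4 Adnp peaks inside these genes. An HP1γ peak at 44861165 to 44861370, 206 bp wide, lay inside the gene, closer to that end than to the other. It was the single HP1γ peak inside any of the 10 genes, and the Adnp and HP1γ peaks of Kmt2a did not overlap. The lncRNA gene Gm39326 covers both positions, so the peaks lie in that gene as well. An Adnp peak and an HP1γ peak inside the same gene were found for 1.59% of protein-coding genes, where long genes have more room.

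The Kmt2a promoter is shown because it was the only one of the 10 promoter windows listed for 7 of these genes that an Adnp peak touched. In the 250 bases before the start (minus strand, chr9:44881290-44881539), capitals mark the 228 bases that the Adnp peak covers.
Kmt2a: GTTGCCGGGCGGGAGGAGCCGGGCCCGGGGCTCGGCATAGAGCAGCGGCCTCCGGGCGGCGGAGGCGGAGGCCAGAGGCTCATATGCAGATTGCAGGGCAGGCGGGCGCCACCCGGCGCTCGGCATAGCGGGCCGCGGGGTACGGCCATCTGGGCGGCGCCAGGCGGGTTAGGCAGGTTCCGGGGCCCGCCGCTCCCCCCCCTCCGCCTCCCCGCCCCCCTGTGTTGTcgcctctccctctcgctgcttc

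The window had a GC content of 75.7% and 36 CpG dinucleotides, above the medians of 61% and 20 over the 320 windows that an Adnp peak touched. It was searched on both strands for the words CGCCCTCT and CGCCCCCT, which belong to the motif known for Adnp. Neither word was found in it, nor in any other window of these genes. Of all 32851 windows of the same length, 8.75% held one of the words, and of the 320 windows touched by an Adnp peak 24.1% did. The part of the Kmt2a peak beyond this window was not searched.

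Kmt2c and Setd1b each held 1 Adnp peak away from their ends. Kmt2c, a long gene on chromosome 5 (25271795 to 25498855, minus strand), had it at 25463041 to 25463462 with a score of 31.8, centred 35.5 kb downstream of the start. A further peak at 25521027 to 25521434 lay upstream, 22.2 kb from the gene. Setd1b, on the same chromosome at 123142040 to 123168630, had a peak at 123162649 to 123163012 with a score of 36.5, which lay 5.62 kb from the higher end. Below Setd1b, a peak at 123122240 to 123122637 with a score of 50.8 lay 19.4 kb away in Rhof, a small GTPase gene. A run of 4 peaks, counted up to 60 kb from Setd1b, began 48.1 kb away in Tmem120b. Both genes thus had an Adnp peak in the gene body and none 5 kb or less from an end.

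Kmt2b, Kmt2d and Setd1a had no peak inside. The Kmt2d peaks lay past its 3′ end in Prkag1, a gene of the energy sensor AMPK. Their positions on chromosome 15 were 98823350 to 98823787, 7.88 kb from Kmt2d (98831669 to 98874077), and 98816232 to 98816606, 15.1 kb away, with scores of 32.1 and 25.2. Kmt2b, on chromosome 7 at 30568855 to 30589056, had its nearest peak 17.1 kb away at 30551462 to 30551764, inside Proser3, with a score of 21.6. Setd1a, on the same chromosome at 127777389 to 127800122, was farthest from any Adnp peak, at 39.9 kb. That peak, at 127839982 to 127840345 with a score of 38.7, lay 298 bp from an end of the syntaxin gene Stx4a. For these 3 genes, the end of another protein-coding gene was nearer to the peak in each case.

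**Figure D2:**
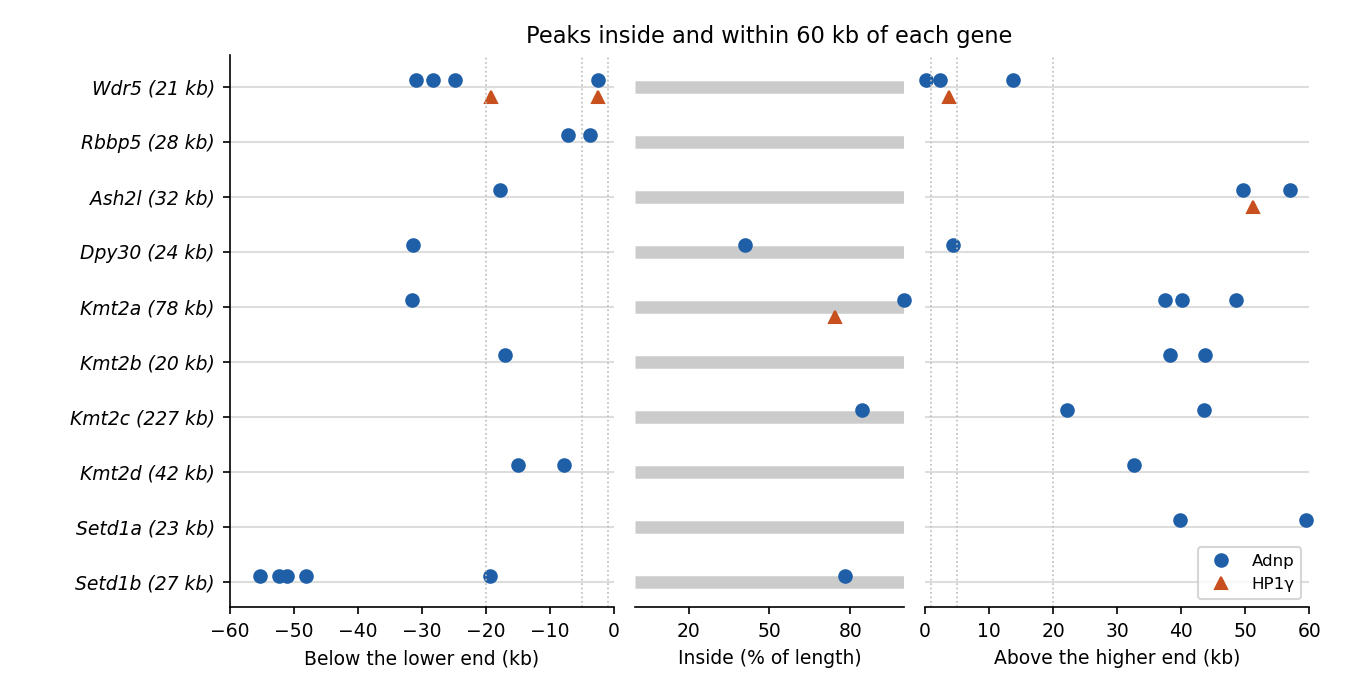
Positions of Adnp peaks (blue circles) and HP1γ peaks (orange triangles) for each of the 10 genes, in kb below the lower end, in percent of the gene's length inside it, and in kb above the higher end; dotted lines mark 1, 5 and 20 kb and lengths are given with the names. HP1γ peaks lie within 20 kb of Wdr5 and inside Kmt2a, and 4 genes hold 1 Adnp peak each.

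Counted together, 4 of the 10 genes had an end with an Adnp peak inside 5 kb (Wdr5, Rbbp5, Dpy30 and Kmt2a), where 19.3% of protein-coding genes did. Without Wdr5, which was chosen for its peaks, it was 3 of 9. Within 1 kb the count was 2 of 10 (Wdr5 and Kmt2a) against 5.38%, or 1 of 9 without Wdr5. Within 20 kb it was 8 of 10 against 41.2%, or 7 of 9 without Wdr5. The exceptions at 20 kb were Kmt2c, whose nearest peak outside lay 22.2 kb away, and Setd1a. An Adnp peak lay inside 4 of 10 genes, against 20.7% of protein-coding genes. Longer genes hold peaks more often, and the 10 genes had a median length of 27.5 kb against 17.4 kb. The 8 genes of 20 to under 50 kb had a peak inside in 2 cases, against 27.4% of protein-coding genes of that length, a share near the background. Near an end it was, with a limit of 5 kb, 3 of 8 against 23.7%, and with 20 kb, 7 of 8 against 50.1%. Without Wdr5 these were 2 of 7 and 6 of 7. For the longer Kmt2a and Kmt2c, an Adnp peak lay inside 39.8% of genes of 50 to under 100 kb and 42.7% of genes of 200 to under 300 kb. These counts are small and were not tested.

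The neighbourhoods of these genes were also rich in Adnp peaks. Over each gene and 500 kb on either side, the median was 19.9 Adnp peaks per Mb, against 8.68 over all protein-coding genes, and 22.3 without Wdr5. It ran from 6.52 at Kmt2c and 6.83 at Dpy30 to 34.5 at Kmt2d and 38.0 at Setd1b, with 9.79 at Wdr5. Of the genes at the 2 extremes, Kmt2c, Dpy30 and Setd1b had a peak inside, and Kmt2d had peaks within 20 kb. Setd1a, with 17.6 peaks per Mb, had none within 20 kb. The part of this density in the counts was not tested.

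The nearest Adnp peak lay at a median of 1.96 kb from the 10 genes (0 where a peak lies inside), against 30.6 kb for protein-coding genes. Wdr5 gives one of the middle values, and over the other 9 genes the median was 3.69 kb. The order ran from the 4 genes with a peak inside, through Wdr5 at 0.225 kb, Rbbp5 at 3.69 kb, Kmt2d at 7.88 kb, Kmt2b at 17.1 kb and Ash2l at 17.8 kb, to Setd1a at 39.9 kb. Kmt2b and Ash2l were thus about equally far. Core subunit genes had a peak near an end (5 kb) in 3 of 4 cases and catalytic subunit genes in 1 of 6, against 19.3% of protein-coding genes. A peak lay inside 1 of 4 core and 3 of 6 catalytic genes, against 20.7%. Of these 3 catalytic genes, Kmt2a and Kmt2c are long, and 39.8% and 42.7% of genes in their length classes had a peak inside. Without Wdr5, the core count near an end was 2 of 3. Within 20 kb of an end, a peak was found for 4 of 4 core and 4 of 6 catalytic genes, against 41.2% of protein-coding genes. These are very few genes, and the difference between core and catalytic genes was not tested.

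**Figure D3:**
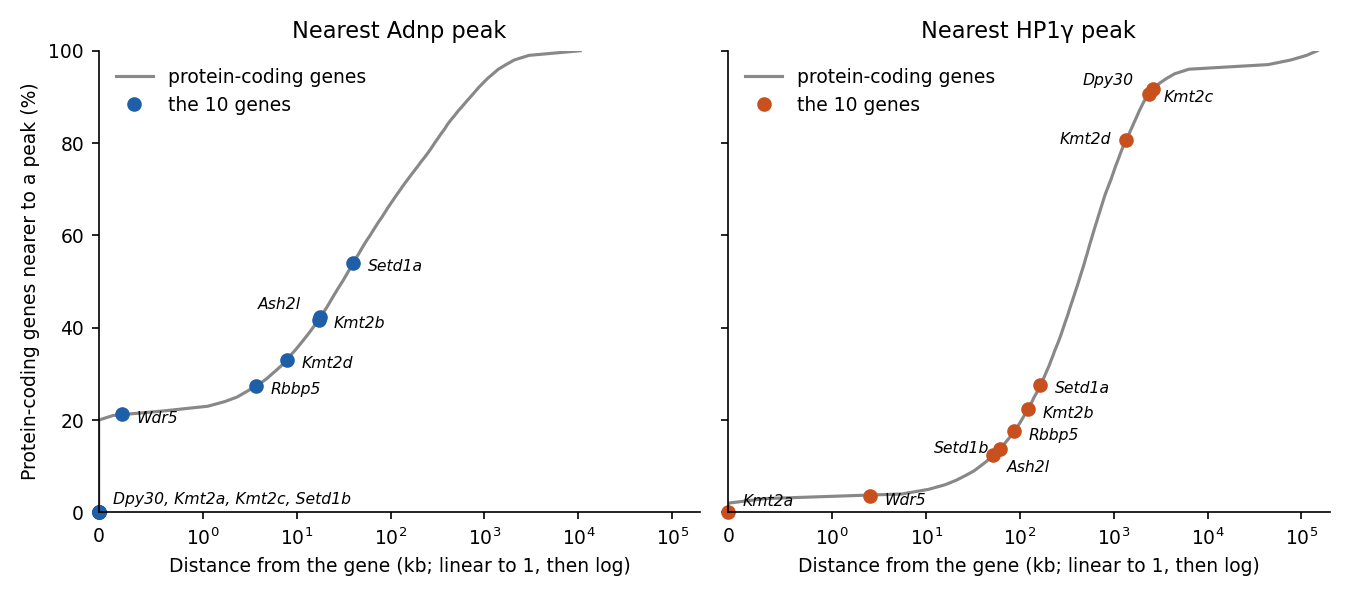
Distance in kb from each gene to its nearest Adnp peak (left) and HP1γ peak (right), linear to 1 kb and then logarithmic, against the percent of protein-coding genes that lie nearer; the grey line gives all 21523 genes. For Adnp, 4 genes sit at 0 and Setd1a is farthest at 39.9 kb, while for HP1γ, Kmt2a and Wdr5 stand far to the left of the others.

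The 10 genes had 4 HP1γ peaks inside or within 20 kb. Wdr5 was the only one of 10 with one that lay 5 kb or less from an end, where 2.04% of protein-coding genes had one. Over the other 9 genes the count was 0. None of the 10 had one within 1 kb, against 0.855%. Within 20 kb there were 2 of 10, against 5.88%, or 1 of 9 without Wdr5, and the Kmt2a peak passed that limit by a small margin, at 19.982 kb. Inside the gene it was 1 of 10 (Kmt2a), against 2.86% of protein-coding genes and 5.59% of those of 50 to under 100 kb. The median distance to the nearest HP1γ peak was 104 kb, or 121 kb without Wdr5, against 422 kb for protein-coding genes. Kmt2a was at 0 and Wdr5 at 2.54 kb. Next came Ash2l at 51.2 kb, Setd1b at 61.4 kb, Rbbp5 at 87.1 kb, Kmt2b at 121 kb and Setd1a at 165 kb. Kmt2d at 1349 kb, Kmt2c at 2373 kb and Dpy30 at 2617 kb were farthest. Over 500 kb on either side, these last 3 genes had no HP1γ peak, and Dpy30 and Kmt2c each held an Adnp peak. The HP1γ list leaves out peaks with the Adnp motif, so it cannot show whether HP1γ lies at such sites.

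Scores of the 16 Adnp peaks inside or within 20 kb of these genes ran from 11.3 to 101 with a median of 28.5, and 11 of them reached the list's median of 21.2. Without the 4 peaks at Wdr5 the median was 31.9, and 10 of 12 reached the list's median. All 4 peaks inside the genes did, at 25.0 in Dpy30, 31.8 in Kmt2c, 36.5 in Setd1b and 49.6 in Kmt2a. The end of one of the 10 genes was the nearest protein-coding gene end for 10 of the 16 peaks (6 of 12 without Wdr5), and 5 of the 16 lay inside another protein-coding gene. The 16 peaks were taken for lying in or near these genes. The median divides the whole list evenly by definition, which is the background for the counts that reached it. For the counts by nearest gene end and inside another gene, shares over all Adnp peaks were not computed. Those counts have no background.

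**Figure D4:**
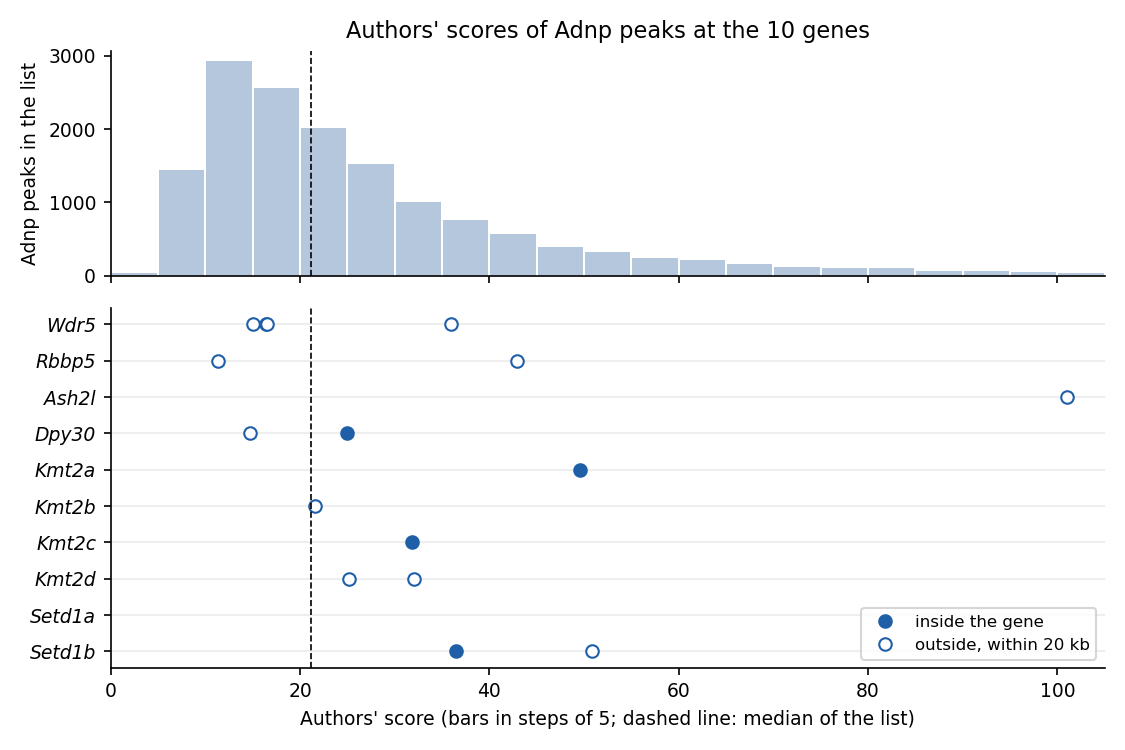
Upper panel, number of Adnp peaks of the whole list by authors' score in steps of 5, not showing the 327 peaks of 105 or more; lower panel, scores of the peaks inside (filled) or outside but within 20 kb (open) of each gene, with the list's median dashed. All filled circles lie to the right of the dashed line, and the Ash2l peak in Lsm1 is highest at 101.

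Overlapping Adnp and HP1γ peaks with both within 5 kb of an end were found at 0 of the 9 partners of Wdr5, where 0.483% of protein-coding genes (104 genes) had such a pair. The pair at Wdr5 itself is what the gene was chosen for. Peaks of both kinds, overlapping or not, lay that near to 0.869% of genes. HP1γ peaks with the Adnp motif are not in the list, so any pairs at such sites are not counted. In all, 3 protein-coding genes had at least 3 Adnp and 2 HP1γ peaks within 5 kb, namely Wdr5, Il3ra with 4 overlapping pairs and Haus4 with none. These limits are the counts of Wdr5 itself, so its place among the 3 was fixed in advance and is no measure of rarity. The pattern most like that of Wdr5 was sought only among the 104 genes with an overlapping pair, which leaves out Haus4. It was taken as the smallest sum of differences in the numbers of Adnp peaks, HP1γ peaks and overlapping pairs within 5 kb. Apart from Wdr5 itself, none of the 104 had a sum of 0, and 9 had a sum of 1. The 6 of them with top Adnp scores closest to Wdr5 were Insl3, Jak3, Ttc25, Taf1c, Rnf216 and Tmem120b, each with 3 Adnp peaks, 1 HP1γ peak and 1 overlapping pair. Insl3 and Jak3, a hormone and a cytokine receptor kinase gene, share an end and have the same top score of 37.1. Tmem120b is the gene below Setd1b that held the run of Adnp peaks. The peaks of that run lay 9.98 to 17.2 kb from its nearest end and are not among its 3.

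Other genes of H3K4 methylation and its counterparts were counted beside these 10. Of 47 listed genes in the table, 15 had an end 5 kb or less from an Adnp peak and 19 had one inside, beside the 19.3% and 20.7% of protein-coding genes. The 47 genes were not matched for length, and longer genes hold peaks more often, with 39.8% of those of 50 to under 100 kb. Partners specific to single complexes had a peak within 5 kb in 3 of 12 cases, and the top scores were 62.0 at Paxip1, a partner of Kmt2c and Kmt2d, 29.3 at Wdr82, a partner of Setd1a and Setd1b, and 18.5 at Hcfc2. For further methyltransferases and relatives it was 3 of 8, with Setmar at 70.9, Setd7 at 15.5 and Ash1l at 9.39. Of 5 H3K4 demethylase genes, 1 had such a peak, Kdm1a (LSD1), with a top score of 64.2. Other complexes that contain Wdr5 had it in 3 of 11 cases, with Phf20 at 78.0, Kansl1 at 13.9 and Kansl3 at 9.64. Polycomb genes, whose products oppose those of the MLL family, had it in 5 of 11 cases, led by Rnf2 at 44.2, Rbbp7 at 19.4, Mtf2 at 13.0 and Suz12 at 10.4.

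HP1γ peaks within 5 kb were found at 1 of these 47 genes, Setmar, against 2.04% of protein-coding genes. They lay inside 2 of the 47, Setmar and Smyd3, against 2.86%. These counts are near the background. Setmar, on chromosome 6 at 108065045 to 108077127, encodes a SET domain protein fused to a transposase. Its Adnp peak at 108073559 to 108074018 and an HP1γ peak spanning 108073558 to 108073856 shared 298 bp. Smyd3, a gene of the SMYD methyltransferase family, held 2 overlapping pairs inside, farther than 5 kb from its ends. It is a long gene, on chromosome 1 at 178951960 to 179518053, with 6 Adnp and 2 HP1γ peaks inside. Counting pairs inside a gene or within 5 kb of it, Setmar and Smyd3 were the ones with a pair among these 47. Among the 10 genes it was Wdr5, which was chosen for its pair. The share of all protein-coding genes with a pair counted in this way was not computed.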

How the data were processed

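The values are 2 peak lists, which the authors pooled over replicates; they have no headers, and positions are on mm10 (GRCm38), printed here counting from 1. The Adnp list gives a deposited score per peak, of a kind not stated; the deposited score of the HP1γ list is 0 throughout and was not used. Per the submitters' processing notes, the tools were MACS2, edgeR, STAR 2.5.0a, Bowtie 1.0.0 and bcl2fastq 1.17; what each was used for, and with which settings, is not stated there. Other assays of the 82 samples were not analysed here.

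Gene positions came from a RefSeq table of GRCm38.p6 (49997 genes), of which 21523 protein-coding genes formed the background; these lie on chromosomes 1 to 19 or X with a start of at least 3 Mb. Strand and starts came from the RefSeq promoter table, which has entries for 7 of the 10 genes; exons were not used. A gene counted when any base of a peak lay in the window; overlap meant at least 1 bp. No tests were made: the members and lists were chosen with earlier results of these data known. Length classes and the neighbourhood of 500 kb were chosen after the data were seen. Named genes were the 10 members, genes next to Wdr5 or holding a member's nearest peak, up to 4 genes per list by top score, and the 6 most like Wdr5. Genes added beyond that rule after their values were seen were Il3ra, Haus4, Smyd3, Dstyk, Kcnu1, Gm39326 and Rhof. Alternatives were windows of 1 and 20 kb, peak centres, Adnp peaks at or above the median score, and stricter or looser overlap; leaving out Wdr5, which was chosen for its peaks, was added after the data were seen. Counting was tested on simulated peaks, planted singly at long genes, with 200 of 200 placed in the right class. Shorter genes and overlapping pairs were not part of that test. Computations used Python 3.11.15, NumPy 2.4.6, pandas 2.3.3 and matplotlib 3.10.9.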

Additional observations from a re-analysis of the deposited data

How the results depend on the processing

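The window decided the counts. Genes with an Adnp peak near an end numbered 4 within 5 kb, 2 within 1 kb and 8 within 20 kb, and 2 within 5 kb when Adnp peaks under the median score were left out, which removed Rbbp5 and Dpy30. Genes with an HP1γ peak numbered 1 within 5 kb, 0 within 1 kb and 2 within 20 kb. Without Wdr5, an alternative chosen after seeing the data, genes with an Adnp peak near an end numbered 3 within 5 kb, 1 within 1 kb and 7 within 20 kb, and 0 had an HP1γ peak or an overlapping pair within 5 kb. The overlapping pair of Wdr5 was lost with a window of 1 kb (0 genes) and found under the other 5 alternatives that kept the gene; the overlap stayed at 332 bp without lower-scoring peaks. The median distance to the nearest Adnp peak was 1.96 kb, 4.82 kb without lower-scoring peaks (75.1 kb for all protein-coding genes) and 2.34 kb to peak centres; without Wdr5 these were 3.69 kb, 7.18 kb and 4.23 kb. To HP1γ peaks it was 104 kb, the same to their centres, and 121 kb without Wdr5. By peak centre, an Adnp peak lay inside 3 genes in place of 4, since the Kmt2a peak is centred beyond the gene. No paired analysis was possible because both lists are pooled, and for the same reason no replicate could be left out. Depth is unknown, and the HP1γ list leaves out peaks with the Adnp motif, so an absent peak says only that none is listed.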

Other observations

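Gaps in the numbering of the Adnp peaks can be located, since the numbers in the names follow position along each chromosome and reach 31188. Near Wdr5 the listed peaks carry the numbers 15438, 15441, 15442, 15443 and 15446, so numbers are missing between the Brd3 peaks and the shared site and again beyond the 3′ end of Wdr5. Around Dpy30 the numbers 13227, 13228 and 13229 are consecutive, as are 29544 to 29548 around Kmt2a, so no number is missing there.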
